A study of Mus musculus with 8 samples.

Results

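The genes described here encode the molecules that display peptides to T cells: the class I and class II chains of the mouse major histocompatibility complex (MHC, called H2 in the mouse), the genes that load and control them, and the co-stimulatory ligands Cd80 and Cd86. Members were chosen by name alone, as every H2- gene other than those with a -ps name together with B2m, Cd74, Ciita, Tap1, Tap2, Tapbp, Nlrc5, Erap1, Cd80 and Cd86. Of 51 genes with such a name, 40 stood above 0 in at least 2 of the 8 libraries and are the members, out of 54134 genes in the table. The other 11 were left out, and 8 of those were at 0 in every library. Of the 40 members 27 belong to class I, 10 to class II and 2 to co-stimulation. The last, H2-Ke6, carries an H2 name but encodes no MHC chain; it stayed below 1 TPM (reads per transcript length, scaled to a fixed total per library) in every library.

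The cells were wild-type mouse bone marrow stem cells that had spent 14 days in an adipogenic differentiation kit, labelled as bone marrow adipocytes (BMAd). Control (2 libraries) received the differentiation only. The GC libraries (3) came from such cells after 24 hours with the synthetic glucocorticoid dexamethasone (DEX) at 1e-06 M. The GC+GW9662 libraries (3) came from cells that also received GW9662, which blocks PPARγ, the nuclear receptor that drives adipocyte differentiation. No source used here gives the dose of GW9662, the mouse strain or a vehicle. H2 haplotypes differ between strains, so the H2 levels and ratios below may depend on the unknown strain, which was not tested. Separate cultures behind the libraries of a group are not stated, and p-values then cover no more than the spread from library to library, which may be technical.

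Class I molecules pair a heavy chain with the light chain β2-microglobulin and carry peptides cut by the proteasome, pumped into the endoplasmic reticulum by the TAP transporter and loaded there. They are made by nearly all nucleated cells. Class II molecules pair an alpha and a beta chain, travel with the invariant chain Cd74 to endosomes and exchange its remnant for antigen peptides with the help of H2-DM; their transcription depends on Ciita and is highest in dendritic cells, B cells and activated macrophages. Interferon γ raises both classes, and glucocorticoids are known to restrain antigen presentation in macrophages and dendritic cells.

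The libraries held an estimated 18189734 to 27899761 reads, of which 49023 to 83579 fell on the 40 members. Fkbp5 and Tsc22d3, classical DEX-induced genes, were lower in the libraries labelled GC: Fkbp5 stood at 463 and 429 TPM in Control against 32.5 to 80.3 in GC, and Tsc22d3 at 572 and 543 against 50.9 to 65.4. This is the opposite of their known response, so each direction below rests on the labels. In GC+GW9662, whose cells also received DEX, Tsc22d3 stood at 432, 401 and 455 TPM, closer to Control than to GC. Fkbp5 stood there at 104, 78.8 and 104 TPM, closer to GC. The groups labelled with DEX thus differed in Tsc22d3, and the reason was not tested. Control libraries held 1192 to 1194 TPM of 8 adipocyte markers in sum, GC libraries 37.4 to 52.6 and GC+GW9662 libraries 1084 to 1227. Macrophage markers summed to more in these cultures labelled adipocyte: 12 genes reached 31427 to 32347, 9939 to 10434 and 24853 to 28898 TPM in the same order. Of the 12, 10 were lower in GC than in Control. Cd68 went the other way, at 1001 and 956 TPM in Control and 2226 to 3028 in GC, and Cd14 did not pass. Lyz2 (5954 to 6315 TPM) and Cd68 made up most of the GC sum, while C1qa went from 7957 and 7927 TPM to 240 to 349. All 8 tested stroma genes were also lower in GC than in Control, with sums of 5807 to 6067, 114 to 151 and 3410 to 3533 TPM by group. Of all tested genes 39.1% fell in GC against Control. In GC+GW9662 against Control 7 of the 12 macrophage genes and all 8 stroma genes were lower, and 0 were higher. Of 7 tested adipocyte genes 3 were higher and 2 lower there, where 14.1% of all tested genes rose and 48.6% fell. Mean Fabp4 went from 301 TPM in Control to 706 in GC+GW9662, and mean Lpl from 621 to 92.8. Similar sums in these groups thus do not mean similar levels of single markers. The cells that specialise in class II were near absent: 5 B cell markers summed to at most 0.56 TPM with Ms4a1 at 0 in every library, and 8 dendritic cell markers summed to 2.82 to 5.38 TPM with Clec9a at 0 in every library. T cell markers summed to 5.03 to 5.10, 4.64 to 9.95 and 11.5 to 14.4 TPM. The neutrophil list went up, with sums of 20.004 to 26.04, 249 to 549 and 71.1 to 82.4 TPM by group, nearly all of it S100a8 (3.94 ± 0.29 in GC against Control, adjusted p = 1.7e-05), while S100a9 stayed at or below 0.795 TPM. Endothelial markers summed to 6.70 to 7.55, 1.91 to 2.23 and 1.86 to 2.08 TPM, and both that were tested fell in GC. What part these shifts in markers have in the results on the members was not tested, and in bulk RNA fewer cells of a type and less RNA per cell cannot be told apart.

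The promoters of these genes share short elements, and a few are shown because the genes behind them moved in different directions. RefSeq (GRCm38.p6) listed a start for 28 of the 40 members, and the 250 bases before it were searched on both strands, with overlapping matches allowed. CCAAT, the core of the Y box, was present before 23 of 28 members (82.1%) and before 34.5% of all 27025 genes listed. The sequence TGACG, the core of cyclic AMP response elements and of the X2 box, stood before 35.7% of members and 17.9% of all genes, with 9 of the 10 in class I. A κB sequence, GGGATTCCC, stood before 4 members, all class I heavy chains (H2-D1, H2-K1, H2-Q6 and H2-Q7), and before 0.311% of all genes. TGACG and this sequence were chosen after the promoters were seen, and H2-D1 and H2-K1 are near copies there. Their shares beside all genes are therefore no test of enrichment. GCAAC, the core of the X1 box, was found before 5 of 7 class II members and 3 of 19 class I members (30.1% of all genes). The interferon-stimulated response core, GAAA followed by any pair of bases and another GAAA, was found before B2m, H2-T22 and H2-T23 (10.7% of members, 3.04% of all genes). The interferon γ element GAS, TTCNNNGAA with N for any base, was found before H2-M3 and H2-DMb2. That is 7.14% of members, near the 7.18% of all genes. These matches describe letters, not bound sites.

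The stretch before H2-K1 and H2-D1 is nearly one sequence, with 161 of 177 aligned bases identical (91.0%). In the lines below, capitals mark the κB sequence, TGACG on either strand, and CCAAT or its reverse complement ATTGG. H2-K1 (chr17:34000348-34000597, minus strand) is given whole.
H2-K1: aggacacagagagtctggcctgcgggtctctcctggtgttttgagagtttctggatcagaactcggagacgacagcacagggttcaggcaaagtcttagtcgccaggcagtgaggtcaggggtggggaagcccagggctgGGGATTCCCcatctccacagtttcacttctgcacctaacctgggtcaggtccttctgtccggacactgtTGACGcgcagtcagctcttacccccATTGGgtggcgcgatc
The window of H2-D1 is exonic in one annotated transcript, so 2 stretches of 30 bases are shown, chr17:35262914-35262943 and chr17:35262993-35263022 on the plus strand. The first differs from H2-K1 at 1 base and the second at 7 bases.
H2-D1 κB stretch: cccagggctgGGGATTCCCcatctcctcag
H2-D1 TGACG to Y box: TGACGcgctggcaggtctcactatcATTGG

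H2-M3 (chr17:37269984-37270219, plus strand) and H2-T22 (chr17:36042748-36042992, minus strand), 2 nonclassical heavy chains that were low in GC, carry 3 copies of the CCAAT core each. Tap1 (chr17:34187306-34187552, plus strand) starts back to back with the immunoproteasome gene Psmb9 and carries 1. Bases that the annotation places in the own exons of H2-M3, H2-T22 and Tap1 were left out.
H2-M3: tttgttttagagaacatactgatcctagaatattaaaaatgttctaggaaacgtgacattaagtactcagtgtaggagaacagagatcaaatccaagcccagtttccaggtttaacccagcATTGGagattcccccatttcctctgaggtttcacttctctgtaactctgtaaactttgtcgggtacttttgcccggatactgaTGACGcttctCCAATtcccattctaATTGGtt
H2-T22: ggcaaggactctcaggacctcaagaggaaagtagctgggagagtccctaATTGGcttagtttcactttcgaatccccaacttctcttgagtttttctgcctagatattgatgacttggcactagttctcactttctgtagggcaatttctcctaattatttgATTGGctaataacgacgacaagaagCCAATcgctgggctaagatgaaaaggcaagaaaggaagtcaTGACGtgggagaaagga
Tap1: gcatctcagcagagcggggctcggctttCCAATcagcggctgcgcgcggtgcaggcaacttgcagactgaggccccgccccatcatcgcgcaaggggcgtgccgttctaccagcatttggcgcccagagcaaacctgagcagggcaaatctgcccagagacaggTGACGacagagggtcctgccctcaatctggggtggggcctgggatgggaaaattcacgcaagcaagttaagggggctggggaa
H2-DMb1 is a class II gene that was low in GC. Before its RefSeq start the CCAAT core lies in reverse at the end of this stretch (chr17:34153105-34153134, plus strand). The stretch falls inside the gene's span in the annotation (chr17:34153072-34160230), and its overlap with exons was not checked.
H2-DMb1: tgatgctaggctgattcactcagtgATTGG

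Antigen presentation genes did not move as a block in the libraries labelled GC, and neither did all tested genes. Of the 40 members, 29 passed the filter on low values (1 TPM or more in at least 2 libraries) and were tested with limma on log2(TPM + 1), with Benjamini-Hochberg adjustment over all 14985 genes tested and a threshold of 0.05. In GC against Control 6 of these 29 rose and 11 fell, shares near those of all tested genes, of which 16.2% rose and 39.1% fell. The mixed split is therefore not particular to the members. The members' median difference was -0.07 (log2) and that of all tested genes -0.38. Under median-ratio scaling, which moves the median of all genes to 0.04, the split of members became 9 higher and 9 lower. Class I gave 5 higher and 7 lower of 20 tested, and class II gave 1 and 3 of 7.

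In GC+GW9662 against GC 11 members rose and 6 fell, beside 28.3% and 33.5% of all tested genes, with medians of 0.31 and -0.11. Class I gave 7 higher and 5 lower of 20 tested, and 3 of 7 class II members rose. Voom on recovered reads gave 14 higher and 5 lower members. Against Control, GC+GW9662 had 4 members higher and 7 lower, beside 14.1% and 48.6% of all tested genes, with medians of 0.15 and -0.495. This last count rests on the scaling: under median-ratio scaling, which moves the median of all genes to 0.01, it was 15 higher and 1 lower. Each group of libraries serves in a pair of comparisons, so values are given side by side without a test across comparisons.

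**Figure D1:**
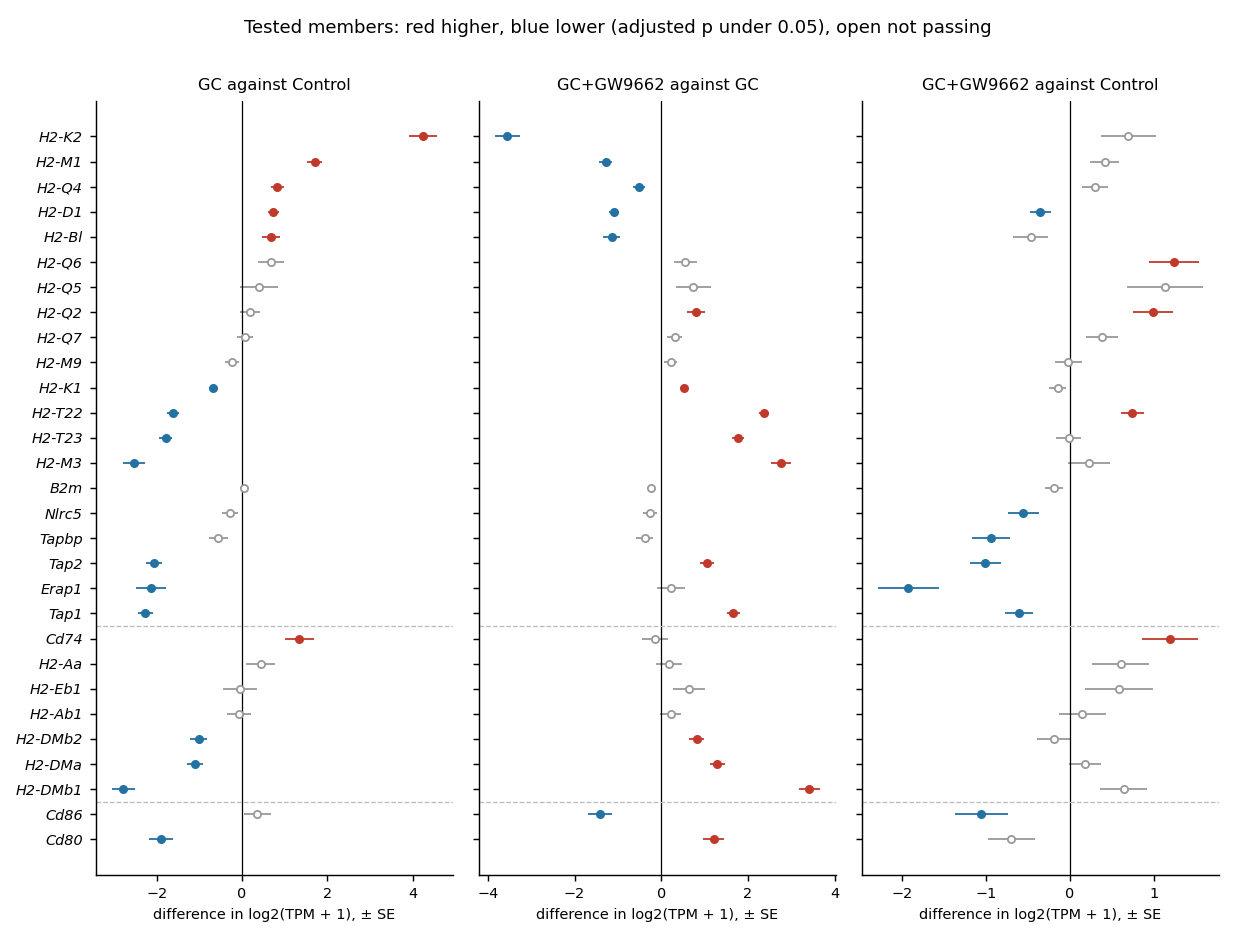
Differences in log2(TPM + 1) with their standard errors (horizontal bars) for the 29 tested members, 1 panel per comparison, class I above the first dashed line, class II between the lines and co-stimulation below. In GC against Control H2-K2 (4.25) lies farthest right and H2-DMb1 (-2.78) farthest left, and in GC+GW9662 against GC both lie on the opposite side, at -3.55 and 3.42.

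The 2 abundant classical heavy chains moved apart. H2-D1 (chr17:35262730-35267499, plus strand) stood at 1107 and 1046 TPM in Control, 1812, 1752 and 1802 in GC, then 963, 715 and 870 in GC+GW9662. All GC libraries lay above all others, and H2-D1 rose by 0.73 ± 0.13 (log2 ± SE, adjusted p = 0.0018) in GC and fell by 1.08 ± 0.12 (adjusted p = 0.00012) in GC+GW9662 against GC. H2-K1 (chr17:33996017-34000333, minus strand) stood at 621 and 586 TPM in Control, 360, 393 and 381 in GC, then 567, 498 and 572 in GC+GW9662. Here all GC libraries lay below all others. H2-K1 fell by 0.67 ± 0.10 (adjusted p = 0.00075) in GC, a call that median-ratio scaling ended (-0.13, adjusted p = 0.44; range over alternatives 0.00057 to 0.44), and rose by 0.53 ± 0.09 (adjusted p = 0.0016) in GC+GW9662 against GC. That rise did not pass under quantile normalization (0.20, adjusted p = 0.12) or with the length trend removed (0.17, 0.23; range over alternatives 8.3e-05 to 0.23).

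The ratio of H2-D1 to H2-K1 does not depend on how a library is scaled. It was 1.78 and 1.79 in Control, 5.03, 4.46 and 4.73 in GC, then 1.70, 1.44 and 1.52 in GC+GW9662. The GC mean of 4.74 ± 0.29 (SD, n = 3) was 2.66 times the Control mean and 3.05 times the GC+GW9662 mean of 1.55 ± 0.13, with no overlap between groups. The exact two-sided permutation p was 0.20 against Control (2 libraries against 3) and 0.10 against GC+GW9662, the smallest that these numbers of libraries allow. GC+GW9662 against Control (means of 1.55 and 1.78) also gave 0.20, so this p does not tell a large shift from a small one. The ratio was not among the planned results. Of the 50-base stretches of their longest transcripts, 14.3% of H2-D1 and 8.11% of H2-K1 also occur in another gene, so some reads could be split between family members by the counting. Both together made up 85.6% to 92.1% of all heavy chain TPM in every library. H2-D1 in GC+GW9662 against Control differed by -0.35 ± 0.13 (adjusted p = 0.044), but the sign turned under median-ratio scaling (0.34) and the call ended without Control replicate 1 (-0.31, adjusted p = 0.21), Control replicate 2 (-0.39, 0.12), GC replicate 3 (-0.35, 0.077), or GC+GW9662 replicate 2 (-0.23, 0.075) or 3 (-0.37, 0.076; range over alternatives 0.0038 to 0.37).

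**Figure D2:**
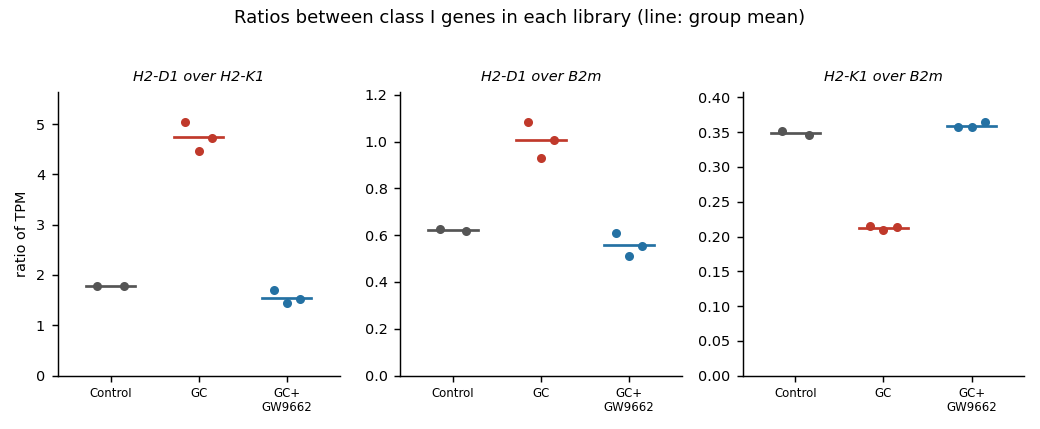
Ratios of TPM between class I genes in each library (points) with group means (lines), for H2-D1 over H2-K1, H2-D1 over B2m and H2-K1 over B2m. The GC libraries lie at 4.46 to 5.03 in the first panel, above all others, and at 0.209 to 0.215 in the third, below all others.

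Other heavy chains also rose in GC. H2-M1, a nonclassical chain of the M region (chr17:36670008-36672219), stood at 21.2 and 22 TPM in Control, 67.7, 74.4 and 74.9 in GC, then 23.1, 30.6 and 34.5 in GC+GW9662. It rose by 1.70 ± 0.17 (adjusted p = 8.8e-05) and fell by 1.29 ± 0.15 in GC+GW9662 against GC (adjusted p = 0.00023). H2-Q4, a Q region chain, stood at 9.49 and 10.5 TPM in Control, 16.8, 20.9 and 18.0 in GC, then 12.4, 12.5 and 12.6 in GC+GW9662. Its rise in GC was 0.82 ± 0.15 (adjusted p = 0.0023), and it fell by 0.53 ± 0.14 (adjusted p = 0.011) in GC+GW9662 against GC, a call that quantile normalization (-0.24, adjusted p = 0.16) and voom on recovered reads ended (-0.24, 0.16; range over alternatives 0.0023 to 0.16). Of the 50-base stretches of H2-Q4 22.03% occur in other genes, against 1.29% for H2-M1. A gene on the other strand covers 19.1% of the exon bases of H2-Q4. Without GC replicate 1 or GC+GW9662 replicate 1 H2-M1 was also higher in GC+GW9662 than in Control (0.41, adjusted p = 0.045, and 0.57, adjusted p = 0.014, against 0.41, adjusted p = 0.068, with all libraries; range over alternatives 0.0021 to 0.23).

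H2-K2 went from near absence to the level of the nonclassical chains. The annotation calls it a transcribed unprocessed pseudogene (chr17:33974831-33978790, beside H2-K1). It held 0.36 and 0.587 TPM in Control (6 and 10 reads), 28.0, 25.3 and 27.4 in GC (438, 480 and 533 reads), then 0.739, 2.79 and 1.03 in GC+GW9662 (12, 48 and 18 reads). The GC mean was 56.8 times that of Control, a difference of 4.25 ± 0.32 on the log2(TPM + 1) scale (adjusted p = 2e-05), and 17.7 times that of GC+GW9662 (-3.55 ± 0.29, adjusted p = 2.8e-05). Of its 50-base stretches 10.9% occur in other genes. Without GC+GW9662 replicate 1 it was higher in GC+GW9662 than in Control (0.92, adjusted p = 0.041; 0.69, adjusted p = 0.093 with all libraries; range over alternatives 0.041 to 0.83).

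H2-Bl, annotated as a polymorphic pseudogene, stood at 19.99 and 17.5 TPM in Control, 24.2, 34.8 and 33.9 in GC, then 11.2, 13.2 and 15.6 in GC+GW9662. It fell by 1.15 ± 0.19 in GC+GW9662 against GC (adjusted p = 0.0011), a call that held under each alternative tried. The rise in GC (0.68 ± 0.21, adjusted p = 0.024) was lost without Control replicate 1 (0.77, adjusted p = 0.072), Control replicate 2 (0.59, 0.15), GC replicate 2 (0.59, 0.054) or GC replicate 3 (0.61, 0.076), or with the length trend removed (0.25, 0.48; range over alternatives 0.00031 to 0.48). Without GC replicate 1 it was also lower in GC+GW9662 than in Control (-0.47, adjusted p = 0.02, against 0.08 with all libraries; range over alternatives 0.0073 to 1).

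A second group of nonclassical chains fell in GC. H2-M3, which presents peptides that begin with N-formyl-methionine, stood at 20.4 and 22.5 TPM in Control, 4.46, 2.12 and 2.41 in GC, then 28.0, 24.4 and 23.6 in GC+GW9662. It fell by 2.53 ± 0.25 (adjusted p = 7.6e-05), a GC mean 7.16 times lower than Control, and rose by 2.76 ± 0.22 (adjusted p = 2.7e-05) in GC+GW9662 against GC. H2-T23 encodes Qa-1, which displays leader peptides of other class I chains to CD94/NKG2 receptors. It stood at 32.2 and 32.0 TPM in Control, 8.98, 9.34 and 7.53 in GC, then 31.6, 29.5 and 34.2 in GC+GW9662. It fell by 1.79 ± 0.15 (adjusted p = 2.9e-05) in GC and rose by 1.77 ± 0.13 (adjusted p = 1.7e-05) in GC+GW9662 against GC. Every GC library lay below all others. H2-T22, a ligand of γδ T cell receptors, stood at 30.4 TPM in both Control libraries, at 10.1, 8.55 and 8.95 in GC, then at 52.7, 55.9 and 46.5 in GC+GW9662. It fell by 1.63 ± 0.14 (adjusted p = 3.8e-05), rose by 2.37 ± 0.13 (adjusted p = 3.1e-06), and was 0.74 ± 0.14 above Control in GC+GW9662 (adjusted p = 0.0034). Of the 50-base stretches of H2-T22 35.8% occur in other genes, first among them H2-T10, and a neighbour on the other strand covers 29.4% of its exon bases, so its level is uncertain. For H2-M3 the share was 0.576%. These calls for H2-M3, H2-T23 and H2-T22 in GC against Control and GC+GW9662 against GC held under each alternative tried.

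H2-M9 passed in no comparison as tested here, at 20.9 and 17.7 TPM in Control, 14.9, 16.7 and 17 in GC, then 19.5, 21.1 and 16.5 in GC+GW9662. Its differences were -0.24 ± 0.16, 0.22 ± 0.15 and -0.02 ± 0.16, and they rest on the processing. In GC against Control it passed as lower with the length trend removed (-0.68, adjusted p = 0.02) and stood at 0.41 under quantile normalization (adjusted p = 0.084). In GC+GW9662 against GC it passed as higher under quantile normalization (0.46, adjusted p = 0.032) and voom on recovered reads (0.55, adjusted p = 0.026). Against Control, GC+GW9662 passed as higher under median-ratio scaling (0.63, adjusted p = 0.013) and quantile normalization (0.87, adjusted p = 0.0051) and as lower with the length trend removed (-0.84, adjusted p = 0.0094). The remaining 11 heavy chains stayed at or below 5.63 TPM in every library. Of the 4 of these that were tested, H2-Q2 and H2-Q6 were higher in GC+GW9662 than in Control (0.98 ± 0.24, adjusted p = 0.0077, and 1.23 ± 0.30, adjusted p = 0.008), and H2-Q2 also than in GC (0.79 ± 0.21, adjusted p = 0.012). Those against Control were lost for H2-Q6 without Control replicate 1 (1.16, adjusted p = 0.062; range over alternatives 0.0003 to 0.062) and for H2-Q2 without Control replicate 2 (0.81, adjusted p = 0.079) or with the length trend removed (0.22, adjusted p = 0.47; range 0.0034 to 0.47). The H2-Q2 difference from GC also ended with the length trend removed (0.37, adjusted p = 0.18; range 0.0071 to 0.18). Without GC replicate 1 H2-Q6 was higher in GC+GW9662 than in GC (0.85, adjusted p = 0.0022, against 0.56, adjusted p = 0.10, with all libraries; range 0.0022 to 0.31). H2-Q2 and H2-Q6 were named after their values were seen. H2-Q5 and H2-Q7 passed in none. The 7 that were not tested (H2-T24, H2-T10, H2-Q10, H2-Q1, H2-M2, H2-M10.2 and H2-T3) reached at most 1.74 TPM.

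The light chain passed in no comparison, while the transporter and the trimming enzyme fell in GC. B2m (chr2:122147686-122153083) stood at 1767 and 1692 TPM in Control, 1675, 1883 and 1790 in GC, then 1585, 1396 and 1571 in GC+GW9662. Its GC libraries straddled those of Control (0.04 ± 0.10, adjusted p = 0.75). Its difference of -0.23 ± 0.09 between GC+GW9662 and GC (adjusted p = 0.054) passed without GC replicate 1 (-0.28, adjusted p = 0.021; range over alternatives 0.0022 to 0.57), and median-ratio scaling gave a rise of 0.59 in GC (adjusted p = 0.0086; range 0.0086 to 0.99). H2-D1 per B2m was 0.622 ± 0.0059 in Control, 1.007 ± 0.076 in GC, then 0.558 ± 0.048 in GC+GW9662 (ratios of TPM, SD).

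Tap1 and Tap2 form the peptide transporter. Tap1 (chr17:34187553-34197225) stood at 27.0 and 25.2 TPM in Control, 4.76, 4.45 and 4.68 in GC, then 18.1, 14.0 and 18.6 in GC+GW9662. Tap2 (chr17:34203527-34216321) stood at 32.9 and 30.6, then 5.70, 8.44 and 6.70, then 16.7, 13.9 and 15.3 TPM. In both genes GC was lowest and GC+GW9662 lay between, with no overlap. Tap1 fell by 2.27 ± 0.17 (adjusted p = 1.9e-05) in GC and rose by 1.66 ± 0.15 (adjusted p = 5.5e-05) in GC+GW9662 against GC, and Tap2 fell by 2.06 ± 0.19 (adjusted p = 4.7e-05) and rose by 1.05 ± 0.17 (adjusted p = 0.00099). Those calls held under each alternative tried. GC+GW9662 against Control gave -0.61 ± 0.17 for Tap1 (adjusted p = 0.015) and -1.007 ± 0.19 for Tap2 (adjusted p = 0.0032). The Tap2 call ended under median-ratio scaling (-0.34, adjusted p = 0.055) and quantile normalization (-0.21, adjusted p = 0.21; range over alternatives 0.00027 to 0.21). The Tap1 call was lost without Control replicate 1 (-0.56, adjusted p = 0.12) or 2 (-0.65, adjusted p = 0.071; range over alternatives 0.0058 to 0.81) and turned sign under median-ratio scaling (0.054) and quantile normalization (0.23). Other genes cover 3.87% of the exon bases of Tap1 (Psmb9) and 18.5% of those of Tap2, on the opposite strand.

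Erap1, which trims peptides in the endoplasmic reticulum (chr13:74639568-74693201), fell and stayed low with GW9662. It stood at 19.7 and 18.4 TPM in Control, 1.95, 5.66 and 3.80 in GC, then 6.20, 3.40 and 3.65 in GC+GW9662. The differences from Control were -2.14 ± 0.36 (adjusted p = 0.0014) and -1.92 ± 0.36 (adjusted p = 0.0033), and the 2 treated groups overlapped (0.21 ± 0.32, adjusted p = 0.58). Tapbp, or tapasin, which bridges TAP and the empty heavy chain, stood at 126 and 121 TPM in Control, 61.0, 106 and 91.3 in GC, then 70.4, 55.8 and 67.2 in GC+GW9662. It passed only in GC+GW9662 against Control (-0.94 ± 0.22, adjusted p = 0.0075), and there not under median-ratio scaling (-0.25, adjusted p = 0.16) or without Control replicate 1 (-0.91, adjusted p = 0.051; range over alternatives 0.00019 to 0.16). Without GC replicate 2 it also passed in GC against Control (-0.72, adjusted p = 0.018; -0.55 ± 0.22, adjusted p = 0.066 with all libraries; range 0.018 to 0.95), and without GC replicate 1 in GC+GW9662 against GC (-0.61, adjusted p = 0.0019; -0.38 ± 0.20, adjusted p = 0.13 with all; range 0.0019 to 0.67). Other genes cover 29.0% of the exon bases of Tapbp and 11.5% of those of Erap1, and reads cannot be told apart there.

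Nlrc5, the transactivator of class I genes, was low throughout, at 2.37 and 2.44 TPM in Control, 1.84, 2.00 and 1.52 in GC, then 1.18, 1.17 and 1.62 in GC+GW9662. It did not pass in GC against Control (-0.29 ± 0.19, adjusted p = 0.22). In GC+GW9662 against Control the difference was -0.56 ± 0.19 (adjusted p = 0.031), a call lost without either Control library (-0.57, adjusted p = 0.14, without replicate 1, and -0.54, adjusted p = 0.15, without replicate 2) and without GC+GW9662 replicate 1 (-0.51, adjusted p = 0.066) or 2 (-0.51, adjusted p = 0.061; range over alternatives 0.016 to 0.72).

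**Figure D3:**
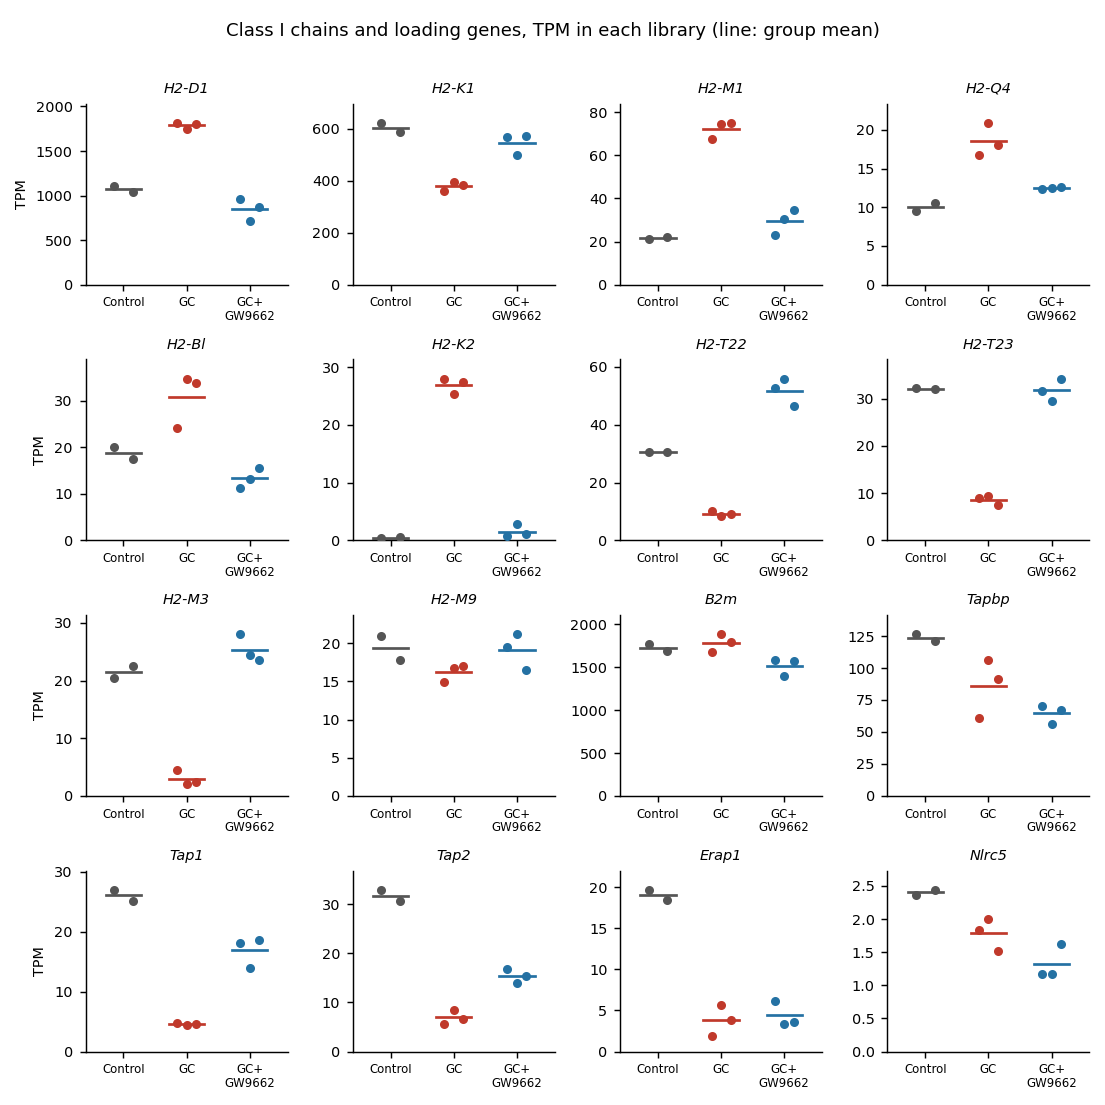
TPM of 16 class I genes in each library (points) with group means (lines); each panel has its own axis from 0. The first row and H2-Bl and H2-K2 hold the 5 chains that rose in GC together with H2-K1, which fell; Tap1 and Tap2 lie at 4.45 to 8.44 TPM in GC and at 13.9 to 18.6 in GC+GW9662.

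Class II genes split between the chains that bind antigen and the H2-DM editor that loads them. H2-DMb1, the DM beta chain (chr17:34153072-34160230), stood at 21.4 and 22.7 TPM in Control, 2.99, 1.23 and 3.21 in GC, then 37.9, 33.2 and 33.4 in GC+GW9662. The 3 groups did not overlap. It fell by 2.78 ± 0.27 (adjusted p = 7.6e-05), a GC mean 8.88 times lower than Control, and rose by 3.42 ± 0.25 (adjusted p = 1.5e-05), a GC+GW9662 mean 14.0 times that of GC. Its partner H2-DMa (chr17:34135182-34139101) stood at 12.7 and 12.3, then 6.18, 4.25 and 5.60, then 16, 14.3 and 12.8 TPM. It fell by 1.11 ± 0.19 (adjusted p = 0.0016) and rose by 1.28 ± 0.17 (adjusted p = 0.00042). The fall of H2-DMa did not pass under median-ratio scaling (-0.61, adjusted p = 0.057) or quantile normalization (-0.34, adjusted p = 0.30; range over alternatives 0.00039 to 0.30). Brd2 on the other strand covers 10.4% of the exon bases of H2-DMa. Of the 50-base stretches of H2-DMb1 27.2% occur in another gene, H2-DMb2. H2-DMb2, a second beta chain that shares 29.5% of its 50-base stretches with other genes, mainly H2-DMb1, held 0 to 1 read in each GC library against 15 and 21 in Control and 9 to 20 in GC+GW9662. Its differences were -1.02 ± 0.19 (adjusted p = 0.0026) and 0.82 ± 0.17 (adjusted p = 0.0042), and the rise did not pass with the length trend removed (0.38, adjusted p = 0.13; range over alternatives 0.001 to 0.13). Against Control, H2-DMb1 in GC+GW9662 was 0.64 ± 0.27 higher (adjusted p = 0.074), which passed without GC replicate 1 (0.64, adjusted p = 0.043) or 2 (0.64, adjusted p = 0.006; range over alternatives 0.0026 to 0.84).

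The antigen-binding chains were low in every group and passed in no comparison. H2-Ab1, the beta chain of H2-A, stood at 7.72 and 6.54 TPM in Control, 7.52, 6.00 and 6.72 in GC, then 7.68, 11.6 and 5.60 in GC+GW9662. H2-Eb1 ranged from 1.16 to 4.66 TPM and H2-Aa from 0.427 to 2.39, with overlapping groups in GC against Control. The invariant chain Cd74, on chromosome 18, was as low: 1.27 and 1.25 TPM in Control (19 and 20 reads), 7.31, 5.33 and 2.57 in GC (103, 91 and 45 reads), then 4.60, 3.76 and 4.10 in GC+GW9662 (67, 58 and 64 reads). It was higher in GC (1.34 ± 0.33, adjusted p = 0.0096) and in GC+GW9662 (1.19 ± 0.33, adjusted p = 0.015) than in Control. Both calls were lost without Control replicate 1 (1.35, adjusted p = 0.056, and 1.19, 0.076) or 2 (1.33, 0.058, and 1.18, 0.073), and the second also with the length trend removed (0.50, 0.18; ranges over alternatives 0.0014 to 0.058 and 0.0012 to 0.18). These chains and Cd74 together reached 10.0 to 20.8 TPM in a library, beside 1418 to 2380 TPM for the class I heavy chains (both sums of TPM, a level per transcript length). These chains, Cd74 and H2-DMb2 were named after their values were seen.

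Ciita, the master regulator of class II transcription, was not detectable at this depth: 1, 2, 2, 0, 1, 0, 0 and 2 reads over the 8 libraries, none above the 3 reads that a count of 0 allows. H2-Oa and H2-Ob, which form the DM inhibitor H2-DO, reached at most 0.201 TPM and were not tested.

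The co-stimulatory ligands, which both bind CD28 and CTLA-4, moved in opposite ways in GC+GW9662 against GC. Cd80 (chr16:38455561-38496335) stood at 11.7 and 11.5 TPM in Control, 1.29, 3.25 and 2.90 in GC, then 6.29, 6.46 and 7.58 in GC+GW9662. It fell by 1.90 ± 0.28 (adjusted p = 0.00065) and rose by 1.21 ± 0.25 (adjusted p = 0.0038). Cd86 (chr16:36603869-36666081) stood at 7.29 and 6.89 TPM in Control, 9.34, 10.0 and 8.82 in GC, then 4.27, 1.44 and 3.56 in GC+GW9662. Its difference of 0.36 ± 0.32 in GC did not pass (adjusted p = 0.37), and it fell by 1.42 ± 0.28 in GC+GW9662 against GC (adjusted p = 0.0032). The higher Cd86 level in GC passed under median-ratio scaling (0.83, adjusted p = 0.047; range over alternatives 0.037 to 0.60). GC+GW9662 against Control gave -1.06 ± 0.32 for Cd86 (adjusted p = 0.019), lost under median-ratio scaling (-0.49, adjusted p = 0.19) and quantile normalization (-0.22, 0.62) and without Control replicate 1 (-1.02, adjusted p = 0.099) or 2 (-1.09, adjusted p = 0.078; range 0.01 to 0.62), and -0.70 ± 0.28 for Cd80 (adjusted p = 0.058), which passed without GC replicate 1 (-0.70, adjusted p = 0.0026) or 2 (-0.70, adjusted p = 0.046; range 0.0026 to 0.80).

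**Figure D4:**
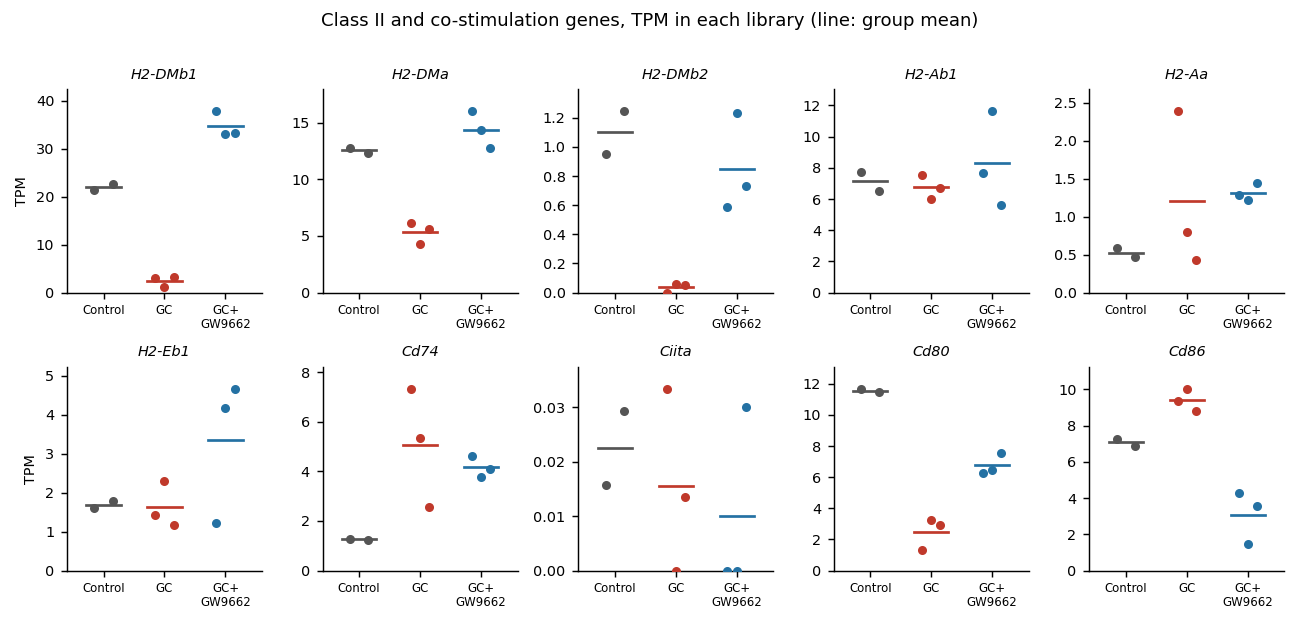
TPM of 8 class II genes, Cd80 and Cd86 in each library (points) with group means (lines); each panel has its own axis from 0. H2-DMb1, H2-DMa and Cd80 are lowest in GC, Cd86 is lowest in GC+GW9662, and the Ciita axis ends below 0.04 TPM.

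Outside the members, 46 other genes of antigen presentation were listed, and 44 were tested. In GC against Control 9 rose and 23 fell, in GC+GW9662 against GC 16 rose and 21 fell, and in GC+GW9662 against Control 4 rose and 32 fell, with medians of -0.92, -0.25 and -0.81. In the same order 20.5%, 36.4% and 9.09% of the tested genes of the list rose, beside 16.2%, 28.3% and 14.1% of all tested genes. The shares that fell were 52.3%, 47.7% and 72.7%, beside 39.1%, 33.5% and 48.6%, and the medians of all tested genes were -0.38, -0.11 and -0.495. Alternatives of the processing were examined for members only. Whether the calls for this list hold under other scalings or without single libraries was not tested. The immunoproteasome, which cuts the peptides that class I binds, fell in GC and rose in GC+GW9662 against GC. Psmb8 stood at 49.2 and 46.7 TPM in Control, 3.57, 2.34 and 2.75 in GC, then 88.3, 88.7 and 86.9 in GC+GW9662. It fell by 3.67 ± 0.16 (adjusted p = 1.2e-06) and rose by 4.53 ± 0.14 (adjusted p = 3.5e-07). Psmb10 fell by 3.14 ± 0.19 and rose by 3.66 ± 0.17, and Psmb9 fell by 2.22 ± 0.21 and rose by 3.10 ± 0.18. All 3 subunits also passed as higher in GC+GW9662 than in Control, Psmb10 close to the threshold. The differences were 0.86 for Psmb8 (adjusted p = 0.0032), 0.52 for Psmb10 (adjusted p = 0.042) and 0.89 for Psmb9 (adjusted p = 0.0066). Psme1 and Psme2 encode the PA28 activator of that proteasome. They fell by 2.84 ± 0.13 and 1.27 ± 0.14 and rose by 2.87 ± 0.12 and 2.23 ± 0.13. Psme2 was also higher in GC+GW9662 than in Control (0.96, adjusted p = 0.002), while Psme1 did not pass there (0.04, adjusted p = 0.84).

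Calr and Sec61a1 went the other way. Calr, the chaperone of the loading complex, stood at 1490 and 1446 TPM in Control, 1774, 3085 and 2690 in GC, then 648, 565 and 654 in GC+GW9662. It rose by 0.74 ± 0.21 (adjusted p = 0.019) and fell by 1.98 ± 0.19 (adjusted p = 7e-05). Sec61a1, a channel subunit of the endoplasmic reticulum, rose by 0.48 ± 0.09 and fell by 1.02 ± 0.08.

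Among regulators, Socs1, the inhibitor of JAK and STAT signalling downstream of interferon γ, showed the largest rise of the list on log2(TPM + 1). It stood at 1.88 and 1.63 TPM in Control, 69.1, 81.9 and 70.6 in GC, then 2.40, 2.61 and 1.46 in GC+GW9662. The gene rose by 4.76 ± 0.21 (adjusted p = 1.4e-06) and fell by 4.58 ± 0.19 (adjusted p = 8.9e-07). Of 17 listed genes of MHC transcription control 3 rose and 8 fell in GC against Control (17.6% and 47.1%), shares near those of all tested genes (16.2% and 39.1%). In GC+GW9662 against GC 23.5% rose and 52.9% fell, beside 28.3% and 33.5% of all tested genes. In GC+GW9662 against Control 0% rose and 82.4% fell, beside 14.1% and 48.6%. Of the checkpoint and co-stimulatory genes, Vsir (VISTA, an inhibitory ligand of myeloid cells) stood at 224 TPM in both Control libraries, 3.87 to 4.63 in GC, then 97.8 to 115 in GC+GW9662 (-5.43 ± 0.13, adjusted p = 1.3e-07, and 4.40 ± 0.12, adjusted p = 1.6e-07). Cd40, the receptor by which T cells activate antigen-presenting cells, stood at 1.55 and 1.24, then 15.9 to 25.0, then 1.44 to 2.50 TPM. It rose by 3.10 ± 0.25 (adjusted p = 2.7e-05) and fell by 2.84 ± 0.23 (adjusted p = 2.5e-05). Cd274 (PD-L1) rose by 2.01 ± 0.25 and fell by 1.90 ± 0.22.

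March1, the ubiquitin ligase that removes class II and Cd86 from the surface, stood at 18.7 and 19.1 TPM in Control, at most 0.0965 in GC, and 1.86 to 4.48 in GC+GW9662. It fell by 4.22 ± 0.27 in GC and rose by 1.92 ± 0.24 in GC+GW9662 against GC, and GC+GW9662 against Control gave -2.30 ± 0.27 (adjusted p = 0.0013). Lgmn, an endosomal protease that opens antigens for class II, fell by 3.18 ± 0.14 (adjusted p = 1.5e-06), rose by 1.95 ± 0.13 and differed by -1.22 ± 0.14 from Control in GC+GW9662. Mr1, which presents microbial vitamin B metabolites, fell by 2.41 ± 0.29 in GC and differed by -1.99 ± 0.29 from Control in GC+GW9662 (adjusted p = 0.00022 and 0.0019).

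**Figure D5:**
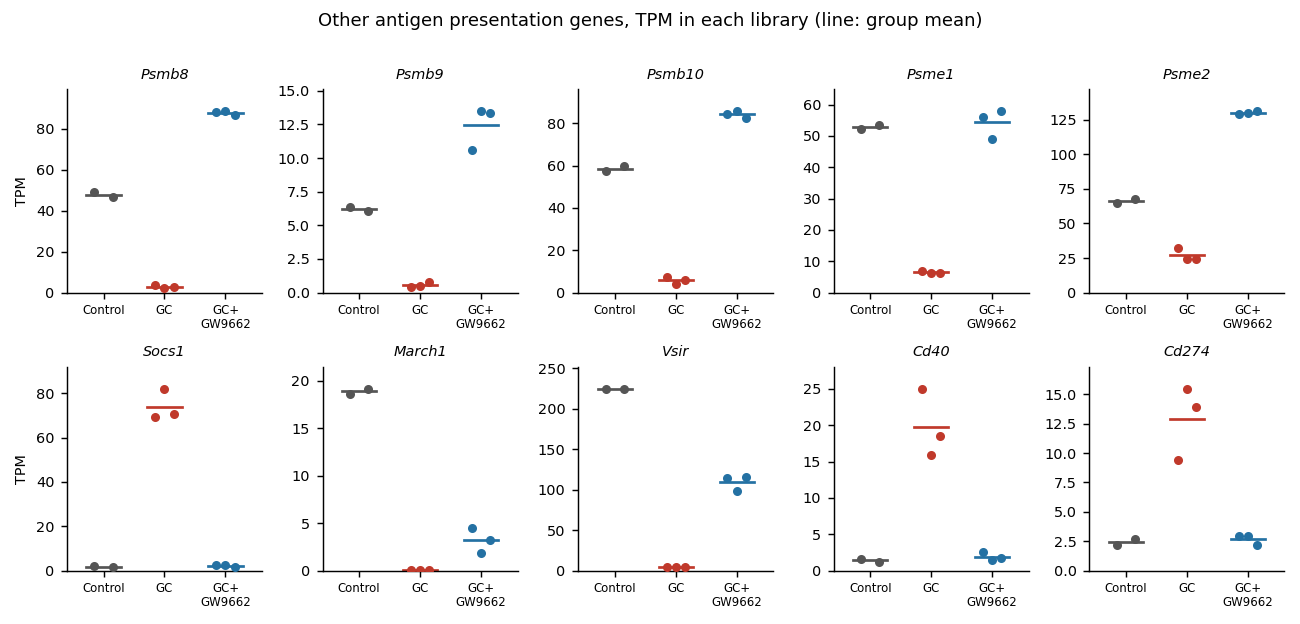
TPM of 10 listed antigen presentation genes that are not members in each library (points) with group means (lines); each panel has its own axis from 0. Psmb8, Psmb9, Psmb10, Psme1, Psme2, March1 and Vsir are lowest in GC, and Socs1, Cd40 and Cd274 are highest there, with Socs1 at 69.1 to 81.9 TPM.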

How the data were processed

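RNA of 8 Smart-Seq2 libraries was measured. The submitters' processing notes name fastp, HISAT2 2.1.0 and featureCounts, in no order. Build and annotation are not given in the sources used here. Deposited values, made by the authors, are TPM (reads per transcript length, made to sum to a fixed total). In 97.6% of rows the gene coordinates equal GENCODE M21, and at its longest transcript per gene 98.2% to 98.5% of low values (below 10 reads, tolerance 0.02) were whole reads, which gave the depth. Smart-Seq2 marks no strand. Its reads are amplified and carry no molecular identifiers, so depth limits only the counting error. The table's 54232 rows held 54134 genes after 96 symbols on several rows were merged and 27 symbols turned into dates were restored.

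With limma 3.58.1 (R 4.3.3), log2(TPM + 1) was fitted for genes that reached 1 TPM in 2 or more libraries, with group means over all 8 libraries and a trended prior. Two-sided p-values were adjusted by Benjamini-Hochberg over all genes of a comparison. The log2(TPM + 1) scale understates changes of low genes. Every member was accounted for; values in each library are given for members with a group mean of at least 10 TPM and for Ciita, Nlrc5, Cd80, Cd86, Tap1, Tap2, Tapbp, Erap1 and B2m. From the other antigen presentation genes those with the 4 smallest adjusted p in each direction of a comparison were named. Members and lists were chosen with earlier results of these data known. Shared 50-base stretches and exon overlaps came from GENCODE M21, and promoters from RefSeq (Biopython 1.88, scipy 1.17.1, pandas 2.3.3). Alternatives were pseudocounts, filters, scalings, priors, replicate blocks, the compared groups alone and leaving out each library; voom on recovered reads and removal of the trend with transcript length were added after seeing the data. In the promoters, TGACG and the κB sequence were added after the sequences were seen.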

Additional observations from a re-analysis of the deposited data

How the results depend on the processing

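In GC against Control and in GC+GW9662 against GC the counts of members passing stayed within 1.5 times of the reported ones under every alternative run. In GC+GW9662 against Control they did not. The 4 higher members became 2 with a filter of 5 TPM, 15 with median-ratio scaling, 15 with quantile normalization, 15 with voom on recovered reads and 8 with the compared groups alone, and 2 to 8 when single libraries were left out (2 without either Control library, 8 without GC replicate 1, 7 without GC+GW9662 replicate 1). The 7 lower members became 1 with median-ratio scaling, 4 with quantile normalization, 3 with voom, 11 with removal of the length trend, and 2 to 9 when single libraries were left out (2 without Control replicate 1, 3 without Control replicate 2). Leaving out a Control library leaves 1, which is then assumed to vary like the other groups. The cause was not tested. Of 60 results on single members, 1197 values under alternatives gave 50 that no longer passed, 49 that newly passed and 16 whose sign turned where one of both fits passed. The other 1082 stayed on their side of the threshold, and 21 of them had the other sign with a pass in neither fit (5 in GC against Control, 5 in GC+GW9662 against GC and 11 in GC+GW9662 against Control). In GC+GW9662 against Control the sign turned with a pass in one of both for H2-D1 (0.34 with median-ratio scaling, 0.14 with voom), H2-K1 (0.54 and 0.35), H2-T23 (0.65, 0.48 and, with quantile normalization, 0.67), H2-Bl (quantile, 0.45), H2-M9 (0.63, and 0.87 with quantile), B2m (0.50 and, with voom, 0.31), Tap1 (0.054, and 0.23 with quantile) and Nlrc5 (0.47 with the length trend removed). With the length trend removed B2m in GC against Control was -0.59. Without a pass in either fit the sign turned in GC+GW9662 against Control for H2-M1 (-0.44), H2-M3 (-0.45), H2-DMb1 (-0.059) and H2-DMa (-0.18) with the length trend removed, for H2-Bl with median-ratio scaling (0.18), for Cd80 with quantile normalization (0.27), for H2-T23 without GC+GW9662 replicate 2 (0.032), and for H2-M9 under 4 alternatives (0.0073 to 0.47). Those in the other comparisons concern H2-M9, B2m, Erap1 and Nlrc5. With median-ratio scaling, quantile normalization and voom H2-M3 (0.73 to 1.05), H2-DMa (0.68 to 1.13) and H2-Q4 (0.82 to 1.26) passed as higher in GC+GW9662 than in Control. H2-DMb1 (1.15 to 1.40) and H2-M1 (0.92 to 1.21) did so as well. The Nlrc5 call there also ended with median-ratio scaling (-0.11) and quantile normalization.

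Whether replicate numbers in the titles, or in the bracketed labels, pair the libraries is left undecided. Same-numbered libraries deviated from their group means with correlations of -0.16 to 0.08. Libraries with different numbers were not set beside them, and each group mean rests on few libraries, so these correlations cannot settle it. With the replicate block by title number members were 5 higher and 11 lower (GC against Control), 11 and 6 (GC+GW9662 against GC) and 4 and 5 (GC+GW9662 against Control), and with the block by bracketed number 5 and 11, 11 and 6, and 5 and 3. Depth limits Ciita, H2-Oa, H2-Ob and the heavy chains that were not tested.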
